A study of Mus musculus with 9 samples.

Results

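Cytosolic ribosomal protein genes encode the protein part of the ribosome that translates nuclear mRNAs. They were taken as the protein-coding genes whose mouse symbol is Rpl or Rps followed by a number and at most one of the letters a, x, l or y, together with Rplp0, Rplp1, Rplp2 and Rpsa. Of 83 matching symbols, 3 (Rpl32l, Rpl6l and Rps4l) were not annotated as protein-coding, which left 80 genes of the 49585 in the files. They comprise 46 genes of large-subunit proteins, 3 of the ribosomal stalk (Rplp0, Rplp1 and Rplp2, which also belong to the large subunit) and 31 of small-subunit proteins. A further 7 genes, among them Fau, Rack1 and Rpl36al, also encode ribosomal proteins or close copies but fall outside this symbol pattern, and are given separately below.

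RNA was sequenced from basal cells of the C57BL/6J mouse prostate, isolated by flow sorting and kept as organoids for 5 days, with 3 libraries in each of 3 media. RD7 medium held R-spondin1 (500 ng/ml), a secreted protein that amplifies Wnt signaling, and the androgen dihydrotestosterone (DHT, 100 nM). R medium held R-spondin1 without DHT, and BM, the common base of all 3 media, held neither. All groups therefore shared EGF (50 ng/ml), Noggin (100 ng/ml), A83-01 (200 nM, an inhibitor of TGF-β type I receptors), Y-27632 (10 μM, a ROCK inhibitor) and N-acetylcysteine (1.25 mM). There was no DHT medium without R-spondin1, so RD7 against R compares DHT on top of R-spondin1. The labels give no age, and leave unsaid if replicate libraries stem from different mice or sorts, so p-values measure the spread between libraries, which may be technical.

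A ribosome holds a fixed number of copies of nearly every ribosomal protein, and cells keep the supply of these proteins balanced. Many of the mRNAs begin with a C followed by a tract of pyrimidines, the TOP sequence, through which mTOR signaling and the protein LARP1 set their translation and stability. In prostate epithelium, androgen is a trophic hormone, and ribosome production generally accompanies growth in cell mass.

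The start sites of 8 genes with larger or smaller responses, described below, are shown first, because the pyrimidine tract is the feature by which TOP mRNAs are defined. They are examples and not the full ends of the response. Rps27l, among the 4 highest in RD7 against R, and Rpl22, among the 4 lowest, are not shown. Neither has a C and pyrimidine tract at an annotated start. Start windows were found in RefSeq (GRCm38.p6) for 60 of the 80 genes. Each sequence runs 5′ to 3′ on the strand of the gene, with 15 bases before the annotated start and 15 from it onward, and capitals mark the unbroken pyrimidine run that touches the start. The 8 genes are ordered by coding length, from Rps27 with 252 nt to Rpl4 with 1257 nt.
Rps27 (chr3:90213634-90213663, minus strand): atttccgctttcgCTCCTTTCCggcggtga
Rplp2 (chr7:141447636-141447665, plus strand): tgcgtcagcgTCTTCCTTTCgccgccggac
Rps26 (chr10:128626492-128626521, minus strand): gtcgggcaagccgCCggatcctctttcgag
Rpl35 (chr2:39005117-39005146, minus strand): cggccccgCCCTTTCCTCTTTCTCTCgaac
Rps6 (chr4:86857353-86857382, minus strand): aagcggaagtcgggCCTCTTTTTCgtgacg
Rpsa (chr9:120127751-120127780, plus strand): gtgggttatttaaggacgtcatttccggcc
Rplp0 (chr5:115559452-115559481, plus strand): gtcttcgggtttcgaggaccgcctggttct
Rpl4 (chr9:64173372-64173401, plus strand): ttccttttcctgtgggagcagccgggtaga
A C at the annotated start followed by at least 4 pyrimidines on the gene's strand was found in 13 of 60 ribosomal protein genes (21.7%), against 3.01% of the 27025 genes with a window. Rps27, Rplp2, Rpl35 and Rps6 carry it, whereas Rps26, Rpsa, Rplp0 and Rpl4 do not at this annotated base. A run of at least 8 pyrimidines within 25 bases of the start was present in 53.3% of ribosomal protein genes, against 22.3% of all genes. In the window of 250 bases before to 50 after the start, CCGGAAG, an ETS-type motif, occurred on either strand in 41.7% of ribosomal protein genes, against 9.93% of all genes. AAGATGG, a YY1-type motif, occurred on either strand in 15% of them, against 7.28%. TATAAA on the gene's strand in the 40 bases before the start was found in 0 of 60 ribosomal protein genes, against 2.78% of all genes.

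Depth ranged from 16894535 to 19102843 counted reads in RD7, from 15961444 to 23256008 in R and from 6505859 to 24141017 in BM, where BM 1 was the shallowest library. The deposited unit is FPKM, counted fragments scaled by the length of the gene and the depth of the library. Of the 80 genes, 77 passed the filter on low values and were tested among 15867 genes. Rpl10l and Rpl39l, copies of Rpl10 and Rpl39 known for their use in spermatogenesis, had 0 reads in all 9 libraries, which with 3 reads as the limit allows up to 0.461 CPM (reads scaled by the library's total) in BM 1 and up to 0.188 CPM in the others. Rpl3l, the striated-muscle copy of Rpl3, had 5 reads in all and was not tested.

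Ribosomal protein genes took a larger share of the reads in RD7 than in R or BM. They held 1.68, 1.98 and 1.65% of counted reads in RD7 1 to 3. The share was 1.36, 0.941 and 1.04% in R 1 to 3. It was 0.742, 0.591 and 1.29% in BM 1 to 3. All 3 RD7 libraries lay above all R and BM libraries, while R and BM overlapped because BM 3 lay above R 2 and R 3. The group means were 1.77 ± 0.181% in RD7, 1.11 ± 0.219% in R and 0.875 ± 0.368% in BM (SD, n = 3). Adding the annotated ribosomal protein pseudogenes, which held 0.0108, 0.00656 and 0.00533% on average in RD7, R and BM, left the order of the groups as it was.

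Within a library the genes moved together. Each gene was set against its own mean of log2(FPKM + 0.5) over the 9 libraries, and the median of the 77 genes was taken in each library. This median offset was 0.78, 1.15 and 0.54 in RD7 1 to 3, 0.07, -0.89 and -0.33 in R 1 to 3, and -0.57, -1.13 and 0.34 in BM 1 to 3. Libraries of the same medium thus differed by up to 0.61 in RD7, 0.96 in R and 1.47 in BM. BM 3 stood 1.15 above the mean of the other BM libraries with 77 of 77 genes higher, and R 1 stood 0.68 above the other R libraries, also with 77 of 77 genes higher. RD7 2 stood 0.45 above the other RD7 libraries with 73 of 77 genes higher. Over all genes tested, the median difference of the same 3 libraries from their group lay between -0.028 and -0.0048. The shifts were not particular to the set. Median offsets of 739 other protein-coding genes with coding sequences under 400 nt differed by up to 0.31 in RD7, 0.26 in R and 0.75 in BM. Those of 78 mitochondrial ribosomal protein genes differed by up to 0.46, 0.37 and 0.89. In both lists RD7 2, R 1 and BM 3 were again the highest libraries of their groups. Subtracting the set's median from each library took away 88.3% of the variance of the 77 genes between libraries. The median SD of a gene over the 9 libraries fell to 0.18 with that median removed, against 0.80 as measured. Rpl27 and Rpl11 followed the set most closely, with a remaining SD of 0.05 each. Rpl4 (0.75), Rpl22 (0.58), Rpl3 (0.53), Rpsa (0.52) and Rplp0 (0.48) followed it least.

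**Figure D1:**
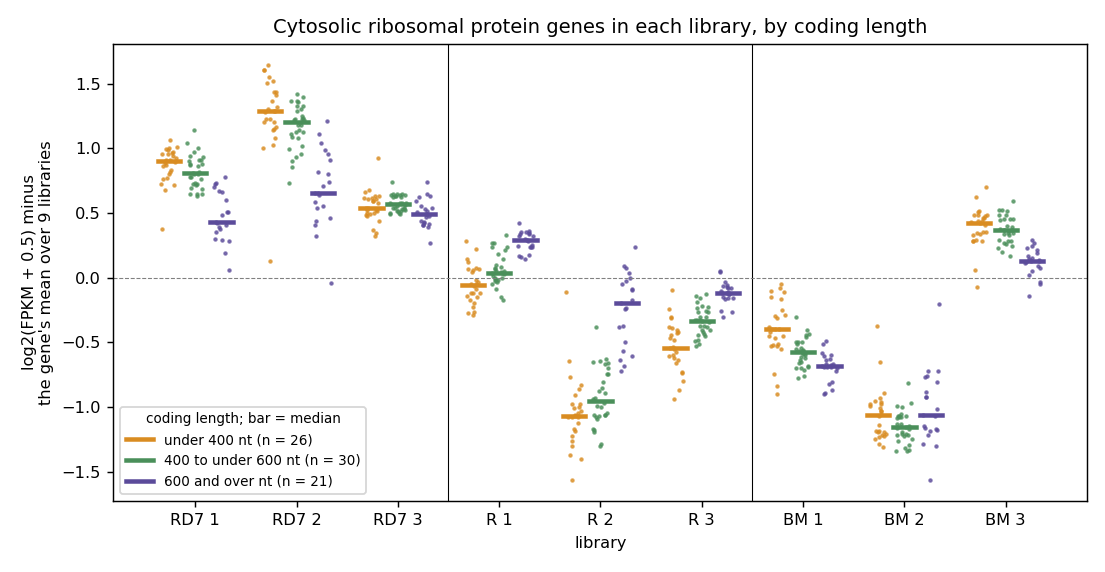
Offset of each of the 77 tested ribosomal protein genes from its own mean of log2(FPKM + 0.5) over 9 libraries (y axis), by library (x axis), with colors for 3 classes of coding length and bars for class medians. RD7 libraries lie highest, the R and BM libraries spread widely, and within R the genes of 600 nt and over lie above the shorter ones.

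DHT on top of R-spondin1 went with higher levels of most ribosomal protein genes. In RD7 against R, limma, fitted on log2(FPKM + 0.5) over all 9 libraries, called 52 of 77 higher and 0 lower at an adjusted p under 0.05, against 13.4% of all 15867 genes called higher and 17.7% called lower. No ribosomal protein gene was lower at an unadjusted p under 0.05 either, and 64 were higher at that level. By limma-voom on the reads read back, 60 were called higher and 0 lower, beside 14.4% of all genes called higher. The log2 fold change was positive for 76 of 77, with a median of 1.25 and a range from -0.03 to 1.85, beside a median of -0.09 over all genes tested. Every RD7 library lay above every R library for 73 of the 77, against 21.7% of all genes, and the 4 exceptions were Rpl3, Rpl4, Rpl6 and Rpsa. By subunit, 29 of 43 large-subunit genes (median 1.16), 21 of 31 small-subunit genes (median 1.32) and 2 of 3 stalk genes were called higher. The count rested on single libraries: 10 genes were called without R 2, 11 without RD7 2, 24 without R 3 and 32 without RD7 1, while without BM 3, which enters only through the shared estimate of spread, it was 69. It was 23 when all genes above 0 in any library were kept in the fit. Without R 2, 13.0% of the ribosomal protein genes were called higher, near the 8.84% of all genes in that fit, and without RD7 2 the shares were 14.3% and 9.30%, so in these fits the share called barely set the ribosomal protein genes apart. The shares were 31.2% and 9.30% without R 3, and 41.6% and 12.1% without RD7 1. They were 89.6% and 16.6% without BM 3, and 29.5% and 6.58% with all genes above 0 kept. The median log2 fold change of the set was 1.01 without R 2 and 1.08 without RD7 2, beside -0.10 and -0.07 over all genes in the same fits.

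Other features moved with this contrast. Summed FPKM of 10 luminal markers was 3919 to 4913 in RD7 and 2776 to 3266 in R, and 6 of the 10 rose and 2 fell by limma. Summed FPKM of 10 basal markers was 8836 to 9912 in RD7 and 10602 to 11232 in R, with 0 higher and 5 lower. Over all genes tested, 13.4% were called higher and 17.7% lower. The median coding length was 1239 nt for the luminal and 2488.5 nt for the basal markers. Of 4165 other protein-coding genes of 1500 to under 3000 nt, 1042 were called lower in RD7 against R. Of 8 tested mesenchymal markers 1 rose (Dcn, 76.6 FPKM in RD7 and 21.9 FPKM in R on average) and 5 fell, and the list of 10 summed to 65.1 to 93.2 FPKM in RD7 and 23.2 to 29.4 FPKM in R. The 8 immune markers summed to 5.22 to 6.82 FPKM in RD7 and 5.84 to 6.91 FPKM in R, and the 6 endothelial and the 6 neuroendocrine markers each summed to under 1 FPKM in every library. In BM the luminal markers summed to 3513 to 4508 FPKM and the basal markers to 8099 to 8963 FPKM, and in RD7 against BM, 5 luminal markers rose and 2 fell, and 1 basal marker rose and 7 fell. In that comparison 21.6% of all genes were called higher and 25.4% lower, and 1529 of the 4165 other genes of 1500 to under 3000 nt were called lower. The part of the marker shifts in the ribosomal protein result was not tested, nor was that of length in the marker shifts. In bulk RNA a change in the mix of cells and a change in RNA per cell cannot be told apart.

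The 4 largest responses belonged to genes with coding sequences of 252 to 369 nt. Rpl35 (ENSMUSG00000062997, GRCm38 chr2:39001580-39005624), a protein near the exit of the nascent peptide tunnel, had 42.7, 69.2 and 33.7 FPKM in RD7, against 17.7, 7.03 and 15.5 FPKM in R. Its groups did not overlap, and it was 3.62-fold higher in mean FPKM (log2 fold change 1.85 ± 0.42, where ± gives the SE of a fold change here and below, limma adjusted p = 0.00883). In the annotation, 66.2% of its exon bases also lie in exons of Arpc5l or Wdr38, whose reads could be counted with it. Rps26, a small-subunit protein at the mRNA exit channel, had 121, 183 and 91.6 FPKM in RD7, against 54.2, 22.8 and 34.2 FPKM in R. No exon of another gene overlaps it, and it was 3.56-fold higher (1.85 ± 0.44, limma adjusted p = 0.0111). Rpl36 had 92.7, 133 and 69.9 FPKM in RD7, against 42.3, 22.4 and 25 FPKM in R (1.71 ± 0.38, limma adjusted p = 0.00798). Rps27l, a copy of Rps27 that is a p53 target in human cells, had 78.6, 104 and 67.0 FPKM in RD7, against 35.5, 17.1 and 26.9 FPKM in R (1.67 ± 0.39, limma adjusted p = 0.0102).

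Of the 3 stalk genes, which recruit translation factors to the ribosome, the shorter Rplp1 (342 nt) and Rplp2 (345 nt) were called and Rplp0 (951 nt) was not. Rplp1 had 208, 233 and 143 FPKM in RD7, against 91.2, 37.2 and 72.6 FPKM in R (log2 fold change 1.59 ± 0.41, limma adjusted p = 0.0149). Rplp2 had 30.7, 42.7 and 22.8 FPKM in RD7, against 13.7, 7.24 and 9.27 FPKM in R (1.62 ± 0.37, limma adjusted p = 0.00859). Both rose with no overlap between the groups. Rplp0, the anchor of the stalk and a common reference gene in quantitative PCR, had 970, 999 and 1039 FPKM in RD7, against 935, 757 and 721 FPKM in R. The groups did not overlap, but the difference did not pass the threshold (0.33 ± 0.21, limma adjusted p = 0.256).

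The smallest responses were those of long genes and of Rpl22. Rpl4 had 443, 413 and 565 FPKM in RD7, against 502, 499 and 437 FPKM in R (log2 fold change -0.03 ± 0.17, limma adjusted p = 0.920), so the groups overlapped. Rpsa, which is also known as a laminin receptor, had 262, 283 and 290 FPKM in RD7, against 287, 225 and 222 FPKM in R (0.19 ± 0.23, limma adjusted p = 0.549). Rpl3, of the peptidyl transferase region, had 290, 319 and 368 FPKM in RD7, against 311, 271 and 243 FPKM in R (0.24 ± 0.21, limma adjusted p = 0.413). R 1 was the highest R library for these 3 genes and reached into the RD7 range each time. Rpl22, although its coding sequence is only 384 nt, had 23.7, 19.9 and 22.8 FPKM in RD7, against 19.7, 16.7 and 16.9 FPKM in R (0.31 ± 0.14, limma adjusted p = 0.112). It was the single gene under 400 nt that was not called.

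**Figure D2:**
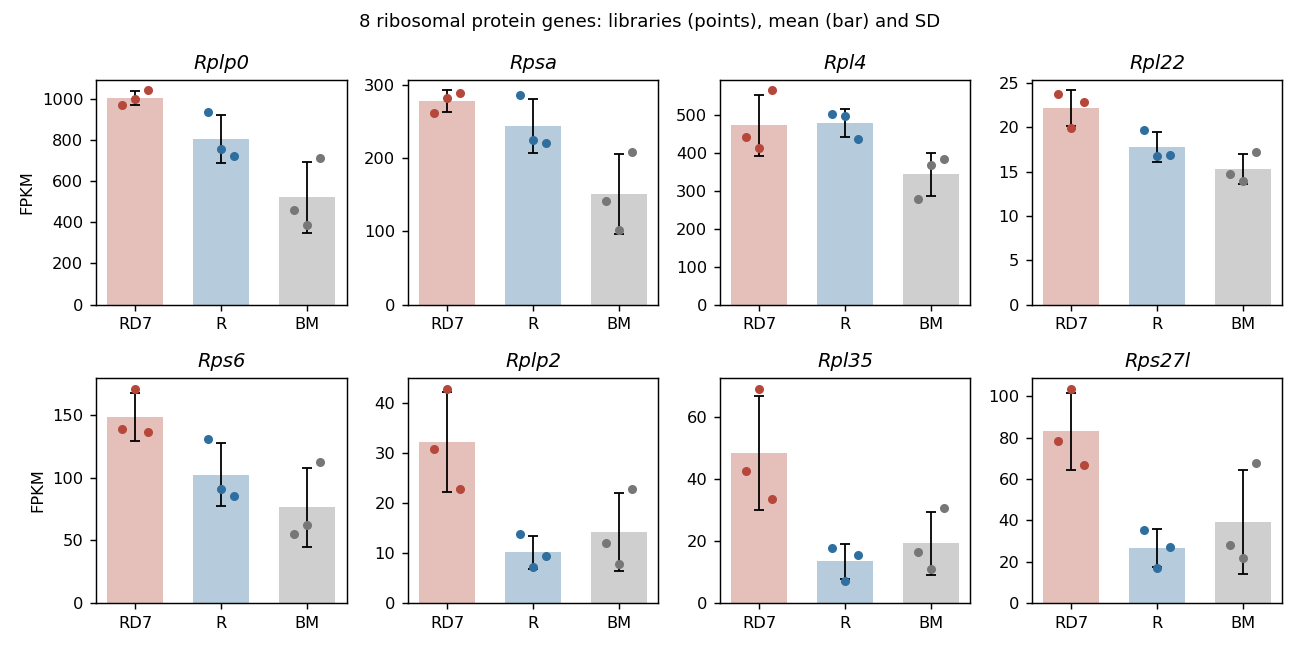
FPKM (y axis, from 0, scaled per gene) of 8 ribosomal protein genes in RD7, R and BM (x axis), with a point per library, bars for the mean and whiskers for the SD (n = 3). Rplp2, Rpl35 and Rps27l are higher in every RD7 library than in any R library, whereas Rpl4 and Rpsa overlap between RD7 and R.

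Among other genes named for their roles, Rps6, the substrate of S6 kinase, had 139, 171 and 136 FPKM in RD7, against 131, 90.9 and 85.0 FPKM in R (log2 fold change 0.55 ± 0.26, limma adjusted p = 0.137). Rpl5 and Rpl11, which with 5S rRNA bind the p53 inhibitor MDM2, gave 0.41 ± 0.25 (adjusted p = 0.232) and 1.21 ± 0.34 (adjusted p = 0.0244) by limma, so only Rpl11 passed. Rps27a, which encodes a fusion of ubiquitin and a ribosomal protein, missed the threshold (1.07 ± 0.38, limma adjusted p = 0.0559). Rps19, mutated in human Diamond-Blackfan anemia, rose (1.50 ± 0.40, limma adjusted p = 0.0185), as did Rps20 (1.24 ± 0.36, limma adjusted p = 0.0258), Rpl10 (1.12 ± 0.31, limma adjusted p = 0.0227) and Rps27 (1.54 ± 0.38, limma adjusted p = 0.0131). Rpl41, with the shortest coding sequence of the set at 75 nt, rose as well (1.55 ± 0.38, limma adjusted p = 0.0124), and so did Rpl38 (1.50 ± 0.46, limma adjusted p = 0.0320) and Rpl39 (1.33 ± 0.39, limma adjusted p = 0.0270). Rps3 (0.44 ± 0.24, limma adjusted p = 0.193) and Rps4x (0.47 ± 0.28, limma adjusted p = 0.232) did not pass. The 10 genes called in every other setting tried were Rpl32, Rpl35, Rpl36, Rpl37, Rplp2, Rps15, Rps18, Rps26, Rps27l and Rps28. They are the 10 called without R 2, and the share of all genes called in every setting was not computed.

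No ribosomal protein gene was called between R and BM, whose set medians spread more within each group than between the groups. In R against BM, limma called 0 of 77 higher and 0 lower, against 4.39% of all genes called higher and 5.64% called lower. At an unadjusted p under 0.05, 8 were higher and 0 lower, and limma-voom also called 0. The median log2 fold change was 0.03 (0.02 over all genes tested), and the range ran from -0.48 for Rpl35 to 0.75 for Rpsa. All R libraries lay above all BM libraries for Rpl4, Rplp0 and Rpsa, 3 of 77 genes, against 15.9% of all genes. Rpsa had 287, 225 and 222 FPKM in R, against 142, 102 and 209 FPKM in BM (0.75 ± 0.23, limma adjusted p = 0.0714). Rplp0 had 935, 757 and 721 FPKM in R, against 459, 388 and 713 FPKM in BM (0.67 ± 0.21, limma adjusted p = 0.0745). In both genes BM 3 lay close to R, and BM 1 and BM 2 far below. Rps4x (0.65 ± 0.28) and Rpl7a (0.60 ± 0.27) came next, and Rps26 (-0.46 ± 0.44), Rps27l (-0.44 ± 0.39) and Rpl37a (-0.40 ± 0.40) were at the low end with Rpl35, all without a call by limma.

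The absence of calls in R against BM rested on BM 3. Without that library 20 ribosomal protein genes were called higher and the median log2 fold change was 0.45, while without BM 2 it was -0.27 with 0 called. The 20 included Rplp0 (0.92, limma adjusted p = 0.00218), Rpsa (1.01, limma adjusted p = 0.00341), Rpl5 (0.90, limma adjusted p = 0.00538) and Rps4x (1.00, limma adjusted p = 0.00637). They had a median coding length of 780 nt, and 16 of them were of 600 nt or more. Over all genes, 13.2% were called higher without BM 3.

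Set against BM, RD7 libraries were higher for nearly the whole set. This comparison shares its libraries with both others. Limma called 76 of 77 higher and 0 lower (0 lower also at an unadjusted p under 0.05 and by limma-voom), against 21.6% of all genes called higher and 25.4% called lower. The median log2 fold change was 1.26 (-0.07 over all genes tested), with a range from 0.46 to 1.51. Every RD7 library lay above every BM library for 72 of 77, against 23.1% of all genes, and the exceptions were Rpl38, Rps13, Rps21, Rps23 and Rps27l. Rpl10, a protein that matures the subunit late in assembly, had 219, 277 and 214 FPKM in RD7, against 68.7, 56.4 and 142 FPKM in BM (1.51 ± 0.31, limma adjusted p = 0.00427). Rps14 (1.51 ± 0.37, limma adjusted p = 0.00951) and Rps27 (1.50 ± 0.38, limma adjusted p = 0.0110) rose by a similar amount. At the low end, Rpl4 had 443, 413 and 565 FPKM in RD7, against 278, 369 and 384 FPKM in BM, and passed narrowly (0.46 ± 0.17, limma adjusted p = 0.0440). Rpl22 (0.52 ± 0.14, limma adjusted p = 0.0121), Rpl3 (0.80 ± 0.21, limma adjusted p = 0.0135) and Rpl15 (0.84 ± 0.25, limma adjusted p = 0.0202) came next from the low end. Rpl38 was the single gene not called (1.12 ± 0.46, limma adjusted p = 0.0688), with 13.9, 23.5 and 10.3 FPKM in RD7, against 5.67, 4.05 and 12.5 FPKM in BM. The count was 25 without RD7 2, 35 without BM 2 and 38 without BM 1, which is 32.5%, 45.5% and 49.4% of the set, against 14.0%, 14.5% and 15.3% of all genes in the same fits. In all, 23 genes were called whichever library was left out, and the matching share of all genes was not computed.

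The response was ordered by coding length, the number of nucleotides from start codon to stop codon. Across the 77 genes, Spearman's rho between coding length and log2 fold change was -0.82 in RD7 against R, 0.86 in R against BM and -0.36 in RD7 against BM. These are correlations across genes that share their libraries, and R enters the first 2 with opposite sign. Over 5933 other protein-coding genes in the same range of coding length, rho was -0.25, -0.06 and -0.27 for the same comparisons. With the merged exon length that underlies FPKM, rho over the 77 genes was -0.50 in RD7 against R and 0.42 in R against BM, both weaker than with coding length, and -0.37 in RD7 against BM, where the length measures gave nearly the same value. Merged exon length was 1.12 to 16.1 times the coding length, with Rps15a at the top, and annotated transcripts of some of these genes hold retained introns. Length order also appeared between libraries of the same medium, for example with rho of -0.70 for RD7 2 against the other RD7 libraries, -0.61 for R 1 against the other R libraries, 0.54 for R 2 against the other R libraries and -0.28 for BM 3 against the other BM libraries.

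In RD7 against R, 25 of 26 ribosomal protein genes under 400 nt were called higher (median log2 fold change 1.47), and 36.0% of 739 other genes of that length were called higher (median 0.48). From 400 to under 600 nt, 25 of 30 were called (median 1.28), beside 23.3% of 1018 others (median 0.21). From 600 nt, 2 of 21 were called (median 0.55), beside 15.2% of 4176 others (median 0.00). The share of other genes called higher was thus largest in the shortest class, and in each class the median of the ribosomal protein genes lay above that of the others. From 600 nt, however, the share of ribosomal protein genes called (9.52%) lay below that of the others (15.2%). In R against BM the medians of the 3 classes were -0.23, 0.03 and 0.49 for ribosomal protein genes and 0.12, 0.22 and 0.16 for others. In RD7 against BM they were 1.24, 1.33 and 1.02 for ribosomal protein genes, beside 0.77, 0.48 and 0.16 for others. There 25 of 26, 30 of 30 and 21 of 21 ribosomal protein genes were called higher, beside 53.3%, 44.7% and 31.8% of others. When the trend on coding length among the other genes was removed from each library, limma called 59 of 77 higher in RD7 against R (median 0.98), 0 in R against BM (median -0.14) and 57 in RD7 against BM (median 0.82). Over all genes in that fit, 17.0%, 4.37% and 22.4% were called higher in the same comparisons. The 13 tested genes with a C and pyrimidine tract at the annotated start had a median of 1.44 in RD7 against R and a median coding length of 390 nt, and the 44 with a window but no such start had 1.20 and 448.5 nt. The medians with and without such a start were -0.10 and 0.17 in R against BM, and 1.27 and 1.24 in RD7 against BM.

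**Figure D3:**
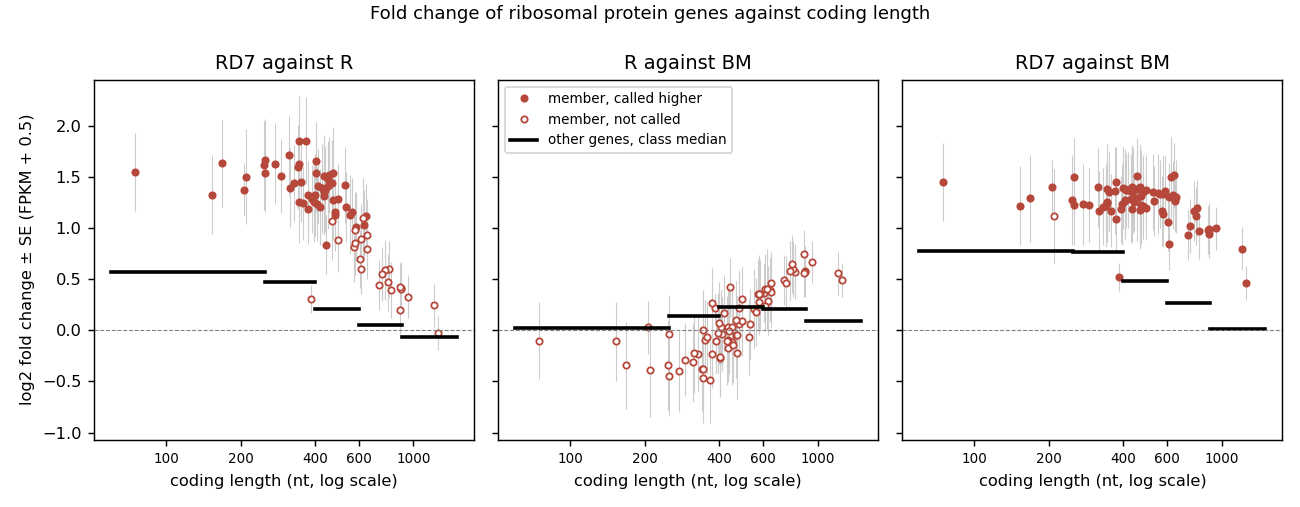
Log2 fold change with SE (y axis) against coding length (x axis, log scale) for 77 ribosomal protein genes in the 3 comparisons, with filled points for genes called higher by limma and black lines for the median of other protein-coding genes in each length class. Points fall with length in RD7 against R, climb with length in R against BM, and all but Rpl22 lie above the black lines in RD7 against BM.

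Levels of the 77 tested genes per kilobase of merged exon length were averaged over the 9 libraries. They ranged from 4.35 FPKM for Rps28 to 776 FPKM for Rplp0, with a median of 53 FPKM. Rpl4 (432 FPKM), Rpl8 (398 FPKM) and Rps2 (355 FPKM) followed Rplp0, and Rps15a (4.88 FPKM), Rpl39 (5.21 FPKM) and Rpl35a (5.42 FPKM) were next to Rps28 at the low end. The order holds only on this scale, since retained introns lengthen some of these genes, and rho between FPKM and CPM per kilobase of coding length over the 77 genes was 0.83. Rps28, the least abundant tested gene on this scale, had 7.41, 9.48 and 6.23 FPKM in RD7, against 3.34, 2.00 and 2.68 FPKM in R (1.37 ± 0.26, limma adjusted p = 0.00325).

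Paired copies were compared as ratios within a library. Rps27l stood at 2.57, 2.49 and 2.87 times the FPKM of Rps27 in RD7, 2.28, 2.35 and 2.75 times in R and 2.74, 3.49 and 3.65 times in BM. RD7 and R overlapped in this ratio, and 2 BM libraries lay above both. Rpl22l1, the copy of Rpl22 that substitutes for it in some tissues, stood at 0.566, 0.744 and 0.477 times Rpl22 in RD7, 0.378, 0.233 and 0.270 times in R and 0.315, 0.243 and 0.593 times in BM. RD7 lay above R in this ratio with no overlap, and BM 3 reached into the RD7 range. Since Rpl22 followed the set little (log2 fold change 0.31 in RD7 against R) and Rpl22l1 changed about as much as the set (1.26, beside the set's median of 1.25), this ratio contains the shift of the whole set and does not single out Rpl22l1.

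Of the 7 ribosomal genes outside the symbol pattern, 4 rose and 0 fell in RD7 against R (median 1.26), among them Rpl36al (1.62 ± 0.40, limma adjusted p = 0.0134) and Fau (1.59 ± 0.37, limma adjusted p = 0.00929). Between R and BM limma called 0 of 7 (median 0.01; 2 higher and 0 lower at an unadjusted p under 0.05, and 0 by limma-voom), and in RD7 against BM, 7 of 7 rose (median 1.27). Over all genes tested, 13.4% were called higher in RD7 against R, 4.39% in R against BM and 21.6% in RD7 against BM. The mitochondrial ribosomal protein genes, which serve the separate ribosome of mitochondria and have a median coding length of 582 nt, numbered 78. In RD7 against R 21 rose and 1 fell (median 0.52), with Mrps6 highest (1.44 ± 0.28, limma adjusted p = 0.00366) and Mrps2 as the one that fell (-0.61 ± 0.15, limma adjusted p = 0.0114). In R against BM, 1 rose and 0 fell (median 0.36), the one being Mrps23 (0.72 ± 0.18, limma adjusted p = 0.0288), and in RD7 against BM, 61 rose and 0 fell (median 0.89). Of the 1018 genes of 400 to under 600 nt outside the cytosolic set, 23.3% were called higher in RD7 against R and 44.7% in RD7 against BM.

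Of 35 ribosome biogenesis genes, whose products make rRNA and assemble the subunits, 2 rose and 6 fell in RD7 against R (median -0.21). Over all genes tested, 13.4% were called higher and 17.7% lower in RD7 against R, so the share that fell was near that of all genes. Both that rose are short genes of H/ACA ribonucleoproteins, Nop10 (1.96 ± 0.35, limma adjusted p = 0.00232) and Nhp2 (0.98 ± 0.31, limma adjusted p = 0.0364). Those that fell included Tcof1, a cofactor of rRNA transcription (-0.79 ± 0.22, limma adjusted p = 0.0232), Rrs1 (-0.61 ± 0.12, limma adjusted p = 0.00510) and the box C/D protein gene Nop56 (-0.47 ± 0.12, limma adjusted p = 0.0167). Nop56 was the single call in R against BM (0.44 ± 0.12, limma adjusted p = 0.0485), and in RD7 against BM, 4 rose and 9 fell. Over all genes, 21.6% were called higher and 25.4% lower in RD7 against BM. The list has a median coding length of 1527 nt, longer than any ribosomal protein gene.

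A list of translation factors and other genes whose mRNAs share the TOP class gave 0 higher and 1 lower of 17 in RD7 against R (median -0.04). The 1 lower was Nap1l1, which is not a translation factor (-0.47 ± 0.13, limma adjusted p = 0.0217). In R against BM, 1 rose (Eef1g, 0.66 ± 0.16, limma adjusted p = 0.0248) and 0 fell, beside 4.39% of all genes called higher. In RD7 against BM, 8 rose and 0 fell (median 0.44), beside 21.6% of all genes called higher. Their median coding length was 1173 nt. Of 18 regulators of ribosomal protein mRNAs and translation, 0 rose and 3 fell in RD7 against R: Sp1 (-0.54 ± 0.15, limma adjusted p = 0.0225), Larp1 (-0.46 ± 0.16, limma adjusted p = 0.0479) and Myc (-0.42 ± 0.14, limma adjusted p = 0.0451). The share that fell was near the 17.7% of all genes called lower. Between R and BM limma called 0 (2 higher and 1 lower at an unadjusted p under 0.05, and 0 by limma-voom). In RD7 against BM, 4 rose and 5 fell, with Eif4ebp1, a repressor of cap-dependent translation under mTOR control, highest (1.52 ± 0.28, limma adjusted p = 0.00221). These shares, too, were near those of all genes, 21.6% higher and 25.4% lower.

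Of 15 p53 response genes, 0 rose and 3 fell in RD7 against R, namely Gtse1 (-0.69 ± 0.18, limma adjusted p = 0.0149), Sesn2 (-0.64 ± 0.16, limma adjusted p = 0.0152) and Polk (-0.64 ± 0.19, limma adjusted p = 0.0299). The share that fell was near the 17.7% of all genes called lower. Between R and BM, 1 rose (Phlda3, 0.58 ± 0.15, limma adjusted p = 0.0377) and 0 fell, and in RD7 against BM, 3 rose and 5 fell. Over all genes, 4.39% were called higher in R against BM, and 21.6% higher and 25.4% lower in RD7 against BM. Of 10 snoRNA host genes without a protein, limma called 0 in RD7 against R (median 0.06; 0 higher and 1 lower at an unadjusted p under 0.05, and 0 by limma-voom). Between R and BM, 2 rose by limma and 0 by limma-voom (Snhg5, 0.93 ± 0.25, limma adjusted p = 0.0411, and Snhg3, 0.77 ± 0.18, limma adjusted p = 0.0187), and 3 rose in RD7 against BM.

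**Figure D4:**
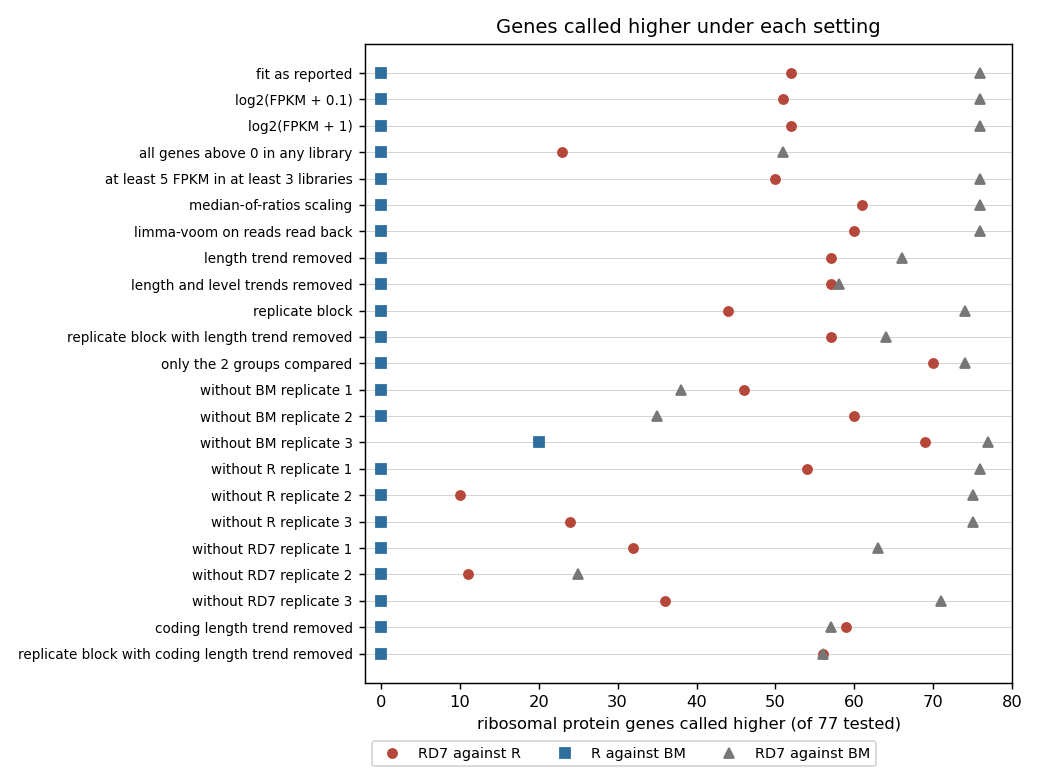
Number of ribosomal protein genes called higher (x axis, of 77 tested, 78 where all genes above 0 were kept) under each setting (y axis), with a symbol for each of the 3 comparisons. The fit as reported gives 52, 0 and 76, the lowest counts for RD7 against R are 10 and 11 (without R 2 and without RD7 2), and R against BM leaves 0 only without BM 3 (20).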

How the data were processed

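The authors deposited FPKM per gene for 9 libraries of polyadenylated RNA, amplified with a SMART-Seq kit per the labels' protocols. Per the submitters' processing notes, GRCm38, edgeR 3.24.1, featureCounts, STAR 2.6.1a and CASAVA 1.9 were used, with no role stated. Annotation release, strand setting and the treatment of multi-mapping reads are not given in the sources used here, so reads shared with ribosomal protein pseudogenes (280 annotated, 156 above 0) could be lost or split.

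Symbols and lengths came from GENCODE M21. Reads were read back from FPKM, merged exon length and the library's smallest step; 22971 of 26813 genes above 0 came out whole (within 0.01), 61 of the 77 tested ribosomal protein genes among them, and a length was fitted for 3842. Amplified reads without molecular identifiers are not independent molecules, so the limits on genes at 0 cover counting error only. Genes reaching 0.5 CPM (reads scaled by library total) in 3 or more libraries were tested on log2(FPKM + 0.5) with limma 3.58.1 (R 4.3.3): 1 mean per group over 9 libraries, 6 residual degrees of freedom, trend and robust settings, two-sided, Benjamini-Hochberg over 15867 genes, for RD7 against R, R against BM and RD7 against BM. Other pseudocounts, filters, scalings, tests, length corrections and left-out libraries were tried beside it. Fold changes are on that scale, which understates low genes; ± after them is the SE. Python 3.11.15, pandas 2.3.3, numpy 2.4.6 and matplotlib 3.10.9 served for tables and plots. The procedure was tested on simulated counts, drawn independently for each gene with a negative binomial dispersion of 0.04. It found 48 to 58% of 2-fold changes and 97 to 99% of 4-fold changes. Shifts shared by many genes of a library were not simulated, so the result does not cover them.

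Ribosomal protein genes and lists were chosen with earlier results of these data known. Genes named are the 4 highest and 4 lowest in each comparison and in level, a fixed set, and up to 3 called genes of each list, except that some of these are not reported here. The libraries that stand apart, the genes called in every setting, the genes whose groups overlap and those farthest from the set were named after their values were seen. Of the 80 genes, 37 share exon bases with another gene, 11 of them over 20%.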

Additional observations from a re-analysis of the deposited data

How the results depend on the processing

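Across 22 other settings, 0 ribosomal protein genes were called lower in any comparison. Called higher in RD7 against R were 52 as reported, 23 with all genes above 0 kept (26813 genes tested), 61 under median-of-ratios scaling, 57 with the trend on merged exon length removed and 10 to 69 with each library left out in turn (medians of 1.01 to 1.48). R against BM gave 0 in every setting except without BM 3, so 0 to 20, and RD7 against BM 25 to 77 with a library left out and 66 with the length trend removed. Over all genes in RD7 against BM, 14.0% were called higher in the fit with 25, 25.7% in the fit with 77 and 22.7% with the length trend removed. Over all genes in RD7 against R, 2121 were higher and 2816 lower as reported, 2532 and 2191 under median-of-ratios scaling, and 2648 and 2327 with the length trend removed. The removal of the coding length trend was chosen after seeing the data.

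Same-numbered libraries correlated at -0.52 to 0.27 in their deviations from the group means and 0 of 9 correlated best with their own number. With a replicate block, 44 were called higher in RD7 against R, 0 in R against BM and 74 in RD7 against BM; with the block and the length trend removed, 57, 0 and 64. The share of summed FPKM held by ribosomal protein genes was 2.49% in RD7, 1.57% in R and 1.36% in BM.

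The sign of genes near 0 turned in places. Rpl4 in RD7 against R was 0.070 under median-of-ratios scaling, 0.061 with the coding length trend removed (with or without the replicate block) and -0.16 to 0.065 with a library left out, above 0 without R 1 (0.0076), R 2 (0.0033), RD7 1 (0.015) or RD7 2 (0.065). Rpl22 in RD7 against R was -0.020 with the coding length trend removed, with or without the block. Rps27l in R against BM was -0.78 to 0.037 with a library left out, above 0 without BM 3. The causes were not tested. With 3 libraries a group, a spread within BM of 1.47 in the set's median limits what R against BM can resolve, and with no strand setting given, overlapping genes cannot be told apart.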
